A study of Rattus norvegicus with 8 samples.

Results

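Triad transcripts of rat eye muscle were compared between the orbital and the global layer. A triad is the place in a muscle fibre where a transverse tubule of the surface membrane meets the sarcoplasmic reticulum, the calcium store. The voltage-sensing dihydropyridine receptor of the tubule, built on the pore subunit Cacna1s with the accessory subunits Cacnb1 and Cacng1, faces the calcium release channel Ryr1 and opens it when the membrane is excited. The junctophilins Jph1 and Jph2 tie the membranes together, and Trdn, Jsrp1 and Fkbp1a are partners of the release channel or of the voltage sensor. Extraocular muscle, which moves the eye, has very fast fibres that differ between its layers. The members were every probe set annotated to exactly 1 of 10 gene symbols, namely Ryr1, Ryr3, Cacna1s, Cacnb1, Cacng1, Jph1, Jph2, Trdn, Jsrp1 and Fkbp1a. Of these, 9 genes were found, with 14 probe sets among the 15923 of the array, and Ryr3 was not analysed here. The array names 10411 genes singly.

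Tissue of the orbital layer (4 captures) and of the global layer (4 captures) of adult rat extraocular muscle was cut out with a laser, and the amplified RNA of each capture was hybridised to 1 Affymetrix RAE230A array. No group carries an allele or a treatment, and strain, sex and number of animals are not given in the labels. Titles carry a prefix, R2 for captures 1 and 2 and R3 for captures 3 and 4 of each layer, whose meaning the labels do not state. After the prefix, the titles of orbital captures 3 and 4 share a number and differ by a suffix, where the other pairs are numbered apart, so these 2 may be repeats of 1 sample and the orbital n may be 3. Their log2 values were no closer to each other (SD of the differences 0.459 over the tested probe sets) than those of the other orbital pairs (0.425 to 0.449). Global pairs stood at 0.466 to 0.540. No pair known to be repeats was at hand, so these values do not settle whether the 2 captures are repeats. Orbital captures 3 and 4 are counted as 2 below. With their mean as 1 sample, the same 5 members passed as with 4 orbital captures, Ryr1 at an adjusted p of 0.0358 and Cacna1s at 0.0248 by limma. Nothing in the labels says that captures came from separate animals, so p-values measure the spread between these captures alone, and they are too small if animals were shared. In such pieces of tissue, fewer fibres of a kind and less of a transcript per fibre cannot be told apart.

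Levels are deposited array intensities, on a linear scale. Differences are log2 of orbital minus global with the standard error (SE), and each adjusted p comes from the limma model of layer, corrected by Benjamini and Hochberg's method across the 9520 probe sets tested, with 0.05 as the threshold. Of the 14 member probe sets, 13 were bright enough to be tested, and Cacnb1 was not.

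RefSeq start regions (build GRCr8) were at hand for 7 of the 10 members, and 4 are shown because 3 of the genes fell together in the orbital layer (Cacna1s, Ryr1 and Jph2) and the layers overlapped for the other, Fkbp1a. Each line gives the 250 bases before the start, 5′ to 3′, for Cacna1s on the plus strand at chr13:50045418-50045667, for Ryr1 on the minus strand at chr1:93551306-93551555, for Jph2 on the minus strand at chr3:172477922-172478171 and for Fkbp1a on the plus strand at chr3:160500498-160500747. Capitals mark CAGCTG, the E-box core bound by myogenic factors, and TATAAA, the core of the TATA box.
Cacna1s: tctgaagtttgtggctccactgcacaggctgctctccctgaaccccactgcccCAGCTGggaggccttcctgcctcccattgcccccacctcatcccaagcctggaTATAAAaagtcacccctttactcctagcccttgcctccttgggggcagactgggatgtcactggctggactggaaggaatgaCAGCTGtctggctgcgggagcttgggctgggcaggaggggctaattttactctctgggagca
Ryr1: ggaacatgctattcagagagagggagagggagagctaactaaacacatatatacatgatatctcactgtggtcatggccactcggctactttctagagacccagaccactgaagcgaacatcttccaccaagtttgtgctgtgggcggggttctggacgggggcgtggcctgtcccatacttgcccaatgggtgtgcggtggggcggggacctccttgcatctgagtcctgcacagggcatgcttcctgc
Jph2: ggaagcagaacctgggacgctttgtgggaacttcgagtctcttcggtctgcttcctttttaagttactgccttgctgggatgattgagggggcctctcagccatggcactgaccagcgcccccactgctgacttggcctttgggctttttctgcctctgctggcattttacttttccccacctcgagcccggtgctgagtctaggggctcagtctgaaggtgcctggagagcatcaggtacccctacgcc
Fkbp1a: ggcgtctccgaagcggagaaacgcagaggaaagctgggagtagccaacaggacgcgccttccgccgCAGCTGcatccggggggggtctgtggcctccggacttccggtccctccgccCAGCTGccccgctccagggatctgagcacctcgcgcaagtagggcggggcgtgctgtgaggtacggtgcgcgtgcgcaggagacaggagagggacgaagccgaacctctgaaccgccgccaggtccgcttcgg
Motifs were sought on both strands of the full windows of 300 bases, which reach 50 bases past the start. CAGCTG stood in 3 of the 7 members, namely Cacna1s, Jsrp1 and Fkbp1a, and in 15.1% of all 33469 windows. Thus a member that fell (Cacna1s) and one whose layers overlapped (Fkbp1a) both held it, with 2 copies each, while Ryr1 and Jph2, which fell, did not. TATAAA stood in Cacna1s alone, at -144 from the start, against 14.2% of all windows. Whether that match serves as a TATA box was not tested. Matches to the MEF2 site and to the CArG box, other motifs of muscle genes, were found in 0 of the 7, against 3.29% and 1.64% of all windows. These matches are descriptions of letters, and the CAGCTG and TATAAA copies of Cacna1s do not overlap each other.

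The calcium release channel was lower in the orbital layer. Ryr1 (probe set 1390355_at) had intensities of 782.7, 558.6, 822.5 and 746.9 in the orbital captures, against 1109.7, 959.1, 1769.8 and 1200.8 in the global captures. Every orbital value was below every global value, and global capture 3 stood highest. The mean was 728 ± 117 (SD, n = 4) in orbital tissue, against 1259.9 ± 354 in global tissue, 57.8% of the global level, and the log2 difference was -0.77 ± 0.18 (SE, adjusted p = 0.0229). The call rested on single captures, with an adjusted p of 0.0644 without orbital capture 2 and of 0.0537 without global capture 3, where the difference was -0.65 and -0.59. With the moderation of the variance made without an intensity trend it was 0.0585.

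**Figure D1:**
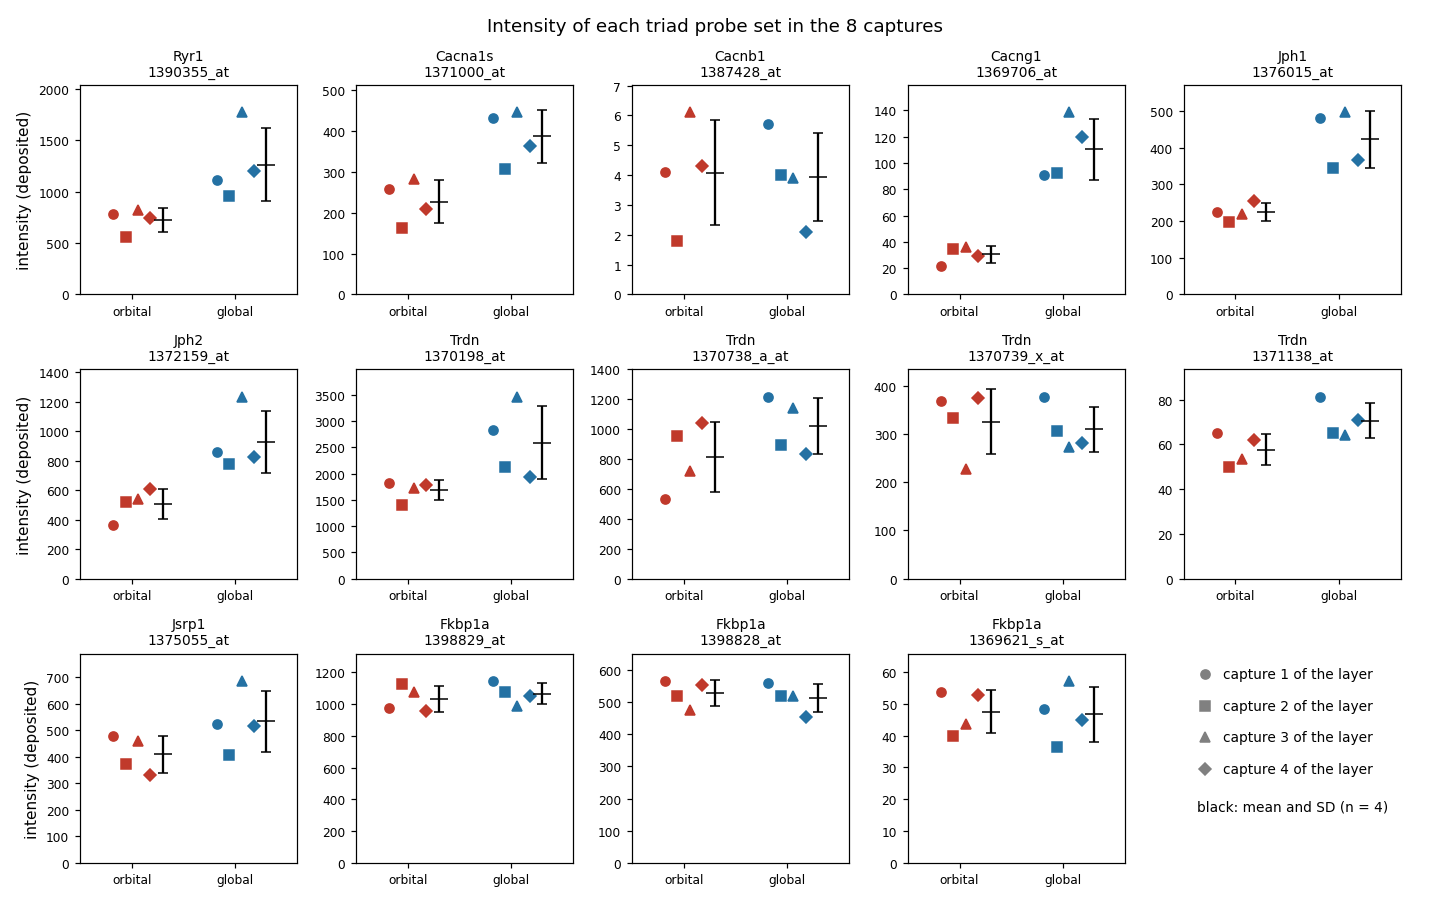
Intensity (linear scale from 0) of the 14 triad probe sets in the 4 orbital (red) and 4 global (blue) captures, 1 panel per probe set, with the mean and SD of each layer in black. The orbital points lie below all global points for Ryr1, Cacna1s, Cacng1, Jph1, Jph2 and 1 Trdn probe set, and the layers overlap for the others.

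The pore of the voltage sensor was lower to a similar extent. Cacna1s (1371000_at), whose voltage-sensing segments trigger release, had 257.8, 162.2, 281.9 and 208.8 in the orbital captures, against 432.3, 307.5, 446.0 and 364.4 in the global captures. The layers did not overlap, and the lowest capture of each layer was its second. The mean was 228 ± 53.2 (SD, n = 4) in orbital captures and 388 ± 64.2 in global captures, so that the orbital layer held 58.7% of the global level (-0.78 ± 0.18, adjusted p = 0.0203). Leaving out orbital capture 2 or 4 or global capture 1 or 3 took the adjusted p to between 0.0503 and 0.0654, with a difference of -0.63 to -0.75.

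The gamma subunit showed the widest gap among the members. Cacng1 (1369706_at), which tempers the channel in skeletal muscle, had 21.9, 34.9, 35.8 and 29.1 in the orbital captures, against 91.0, 92.0, 138.3 and 119.9 in the global captures. The highest orbital value was far under the lowest global value. The mean was 30.4 ± 6.41 (SD, n = 4) in orbital tissue, against 110.3 ± 23.0 in global tissue, 27.6% of the global level, with a log2 difference of -1.83 ± 0.24 (adjusted p = 0.000446). These are dim signals. All 4 orbital values were under 39.4, the intensity that corresponds to the filter on dim probe sets, so the probe set was tested only through its global values and a difference was built into its entry. Orbital capture 1 was also under the highest of 27 Bacillus subtilis control probe sets of its array (23.4). The size depends on the offset added before the logarithm, and was -0.88 with 64 in place of 1. The beta subunit Cacnb1 (1387428_at), which brings the channel to the membrane, had 1.8 to 6.1 in the orbital captures and 2.1 to 5.7 in the global captures. All 8 values lay under the highest control, so this probe set gave no measure of Cacnb1.

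Both junctophilins were lower in the orbital layer. Jph1 (1376015_at), the form of skeletal muscle, had 225.7, 196.3, 220.6 and 254.8 in the orbital captures, against 481.4, 345.7, 496.0 and 366.9 in the global captures. The 4 orbital values lay close together and under all global ones. Means were 224 ± 24.0 (SD, n = 4) for the orbital and 423 ± 77.2 for the global layer, or 53.1% of the global level (-0.90 ± 0.15, adjusted p = 0.00290). Jph2 (1372159_at), the form shared with heart, had 364.8, 517.8, 541.2 and 605.9 in the orbital captures, against 861.3, 775.2, 1233.6 and 821.2 in the global captures. Here too the layers did not overlap, with orbital capture 1 lowest and global capture 3 highest. Means of 507 ± 102 (orbital) and 923 ± 210.1 (global) gave 55.0% of the global level (-0.86 ± 0.18, adjusted p = 0.0105). The calls of Jph1 and Jph2 were kept on leaving out any 1 capture, and neither passed with the captures of 1 prefix alone, which leaves 2 captures a layer.

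Triadin, which links the release channel to the calcium buffer calsequestrin, was read by 4 probe sets that disagreed in size. The brightest (1370198_at) had 1825.1, 1403.7, 1729.7 and 1779.4 in the orbital captures, against 2834.4, 2122.3, 3464.5 and 1935.0 in the global captures. The layers did not overlap, but orbital capture 1 and global capture 4 were close. The mean was 1684 ± 191 (SD, n = 4) in orbital tissue, against 2589 ± 701 in global tissue (-0.59 ± 0.18, adjusted p = 0.0638), which did not pass. It passed under 5 of 23 alternatives, at 0.0320 to 0.0492. The others overlapped between the layers. Probe set 1370738_a_at had 533.9 to 1043.6 in orbital captures, against 836.8 to 1217.4 in global captures (-0.36 ± 0.20, adjusted p = 0.331). Probe set 1371138_at had 50.0 to 64.9 in orbital captures, against 64.3 to 81.3 in global captures (-0.29 ± 0.19, adjusted p = 0.424). The set 1370739_x_at had 227.3 to 374.7 in orbital captures, against 273.2 to 377.2 in global captures (0.06 ± 0.17, adjusted p = 0.886). The _x_ in its name marks probes that can also bind other sequences, and triadin is spliced into several forms. Which form each probe set reads was not determined here.

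The other partners of the release unit did not pass. Jsrp1 (1375055_at), a junctional protein that binds the voltage sensor, had 477.3, 372.6, 459.4 and 330.5 in the orbital captures, against 523.4, 407.2, 686.7 and 516.9 in the global captures. The ranges overlapped, and the means were 410.0 ± 70.0 (SD, n = 4) for the orbital and 534 ± 115 for the global layer (-0.37 ± 0.17, adjusted p = 0.231). Within prefix R2 its difference was -0.13 and within prefix R3 it was -0.61.

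Fkbp1a, the immunophilin that binds Ryr1 and steadies its closed state, differed little between the layers. It is made in most cell types. Its brightest probe set (1398829_at) had 977.2, 1124.2, 1078.9 and 954.3 in the orbital captures, against 1147.0, 1077.1, 985.1 and 1050.2 in the global captures. The values of the layers were interleaved. The difference was -0.04 ± 0.11 (adjusted p = 0.867), with a 95% interval from -0.29 to 0.20. Probe set 1398828_at had 476.0 to 566.2 in orbital captures, against 453.6 to 558.7 in global captures, with a difference of 0.04 (95% interval -0.215 to 0.30). The dim set 1369621_s_at had 36.3 to 57.2 over the 8 captures, with its extremes in the global layer, and its interval was wider, from -0.48 to 0.54. The _s_ marks probes shared by related sequences.

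Counted together, 5 of the 13 tested member probe sets, each of a different gene, were lower in the orbital layer, 0 were higher and 8 did not pass. Of all tested probe sets, 7.41% were called, 3.50% lower and 3.91% higher. Without Cacng1, which entered through its global values, the count was 4 of 12. The layers did not overlap for 6 of the 13, all with orbital below global, where 6.75% of all tested probe sets did so. These 6 include Cacng1, whose entry through its global values favours such a gap. The median difference was -0.37 over the 13 member probe sets and 0.02 over all tested. The count of 5 was 3 without orbital capture 2 or without global capture 3, and 0 and 1 with the captures of prefix R2 and of prefix R3 alone, the 1 being Cacng1.

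The layer differences were also taken within each prefix. Of the 13 probe sets, 12 had the same sign within R2 and within R3. Each overall difference is the mean of these 2, so for called members a shared sign is not separate evidence. The share with the same sign over all tested probe sets was not taken. Within R2 and R3 in turn, Ryr1 differed by -0.64 and -0.89, Cacna1s by -0.83 and -0.73, Cacng1 by -1.69 and -1.96, Jph1 by -0.95 and -0.84, and Jph2 by -0.91 and -0.81. The exception was the dim Fkbp1a set, at 0.14 and -0.08. The interaction of layer and prefix was called for 0 of 9520 probe sets by limma (0.00%), with 290 at an unadjusted p under 0.05, of which 0 were members. With 2 captures per layer and prefix, that test could show only large disagreement.

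**Figure D2:**
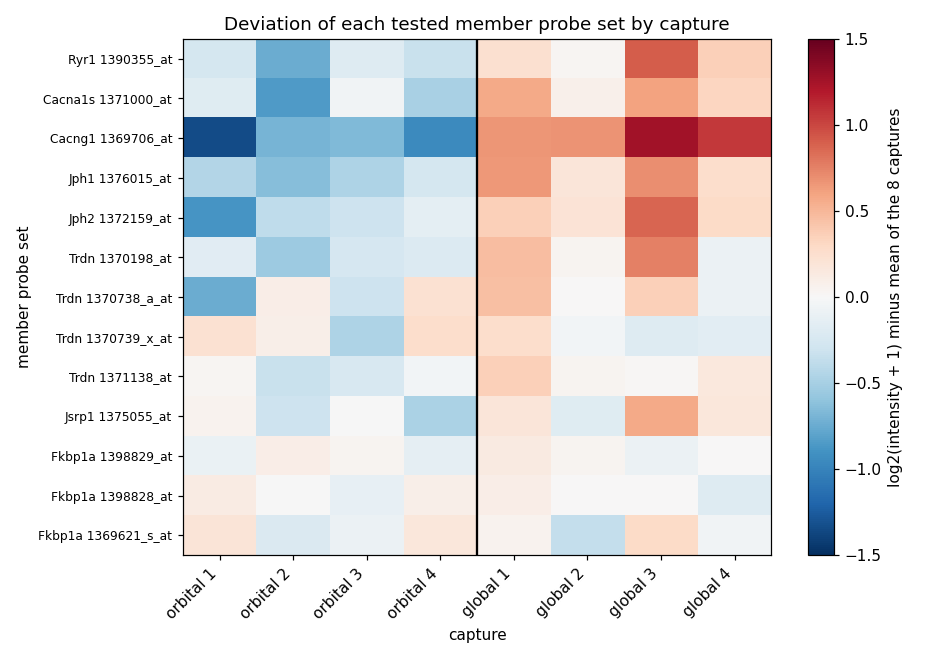
Heat map of log2(intensity + 1) minus the mean of the 8 captures (colour scale in log2 units) for the 13 tested member probe sets, with orbital captures left and global captures right of the line. Ryr1, Cacna1s, Cacng1, Jph1 and Jph2 are below their mean in all orbital captures, and 8 of the 13 probe sets are highest in global capture 3.

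Several members varied alike among captures. Global capture 3 was the highest of the 8 captures for 8 of the 13 probe sets, and also for 8 of 14 tested muscle fibre genes, against 14.6% of all tested probe sets. A probe set with every orbital value below every global value must be highest in a global capture. The 14.6% covers probe sets of either direction, so it is not a like share. Over the 8 captures, the Pearson r of Ryr1 was 0.93 with Cacna1s, 0.90 with Jph1, 0.90 with the brightest Trdn set, 0.86 with Jsrp1, 0.84 with Jph2 and 0.84 with Cacng1. With the brightest Fkbp1a set it was -0.18 and with the Trdn _x_ set -0.32. These correlations describe captures that fall into 2 layers and share a scaling, and so follow the layer difference in part. Among 7960 other tested probe sets with 1 gene name, the 5 most like Ryr1 by Pearson r over the 8 captures (0.97 to 0.99) were those of Ddx1, an RNA helicase, Myl11, a fast skeletal myosin light chain, Tmem38a, a cation channel of the sarcoplasmic reticulum, Sowaha and Rnpepl1. Myl11 had a mean of 8483 in orbital tissue, against 10621 in global tissue. The 5 most like Cacna1s (0.96 to 0.98) were those of Synpo2, an actin-binding protein of the Z disc, Ctsl, a lysosomal protease, Ube2g1, a ubiquitin-conjugating enzyme, Ttc4 and Sars1. Synpo2 had a mean of 1555 in orbital tissue, against 2563 in global tissue.

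Whether one member fell further than another was asked within captures, by subtracting the log2 value of one probe set from that of another. There were 5 such pairs, chosen after the values were seen, and each was compared between layers with an exact permutation test, two-sided, whose smallest possible p with 4 against 4 is 0.0286. Cacna1s minus Ryr1 was -1.69 ± 0.14 (SD, n = 4) in orbital captures, against -1.67 ± 0.26 in global captures (exact permutation p = 0.943). Jph1 minus Jph2 was -1.16 ± 0.32 in orbital captures, against -1.12 ± 0.20 in global captures (exact permutation p = 0.800). For both pairs the layers differed by less than the spread of the captures. Cacng1 minus Cacna1s was -2.86 ± 0.54 in orbital captures, against -1.81 ± 0.29 in global captures (exact permutation p = 0.0571, 0.143 adjusted over the 5). That layer difference, -1.05, depended on the offset added to the dim Cacng1 signal, and was -0.70 with an offset of 16 and -0.24 with 64. Fkbp1a minus Ryr1 was 0.52 ± 0.33 in orbital captures, against -0.21 ± 0.45 in global captures, without overlap (exact permutation p = 0.0286, 0.143 adjusted). The brightest Trdn set minus the _x_ set was 2.39 ± 0.37 in orbital captures, against 3.04 ± 0.42 in global captures (exact permutation p = 0.114, 0.190 adjusted). None of the 5 (0) passed after adjustment, and with so high a smallest p a single pair could not have passed, so these tests do not settle whether the members changed unequally.

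**Figure D3:**
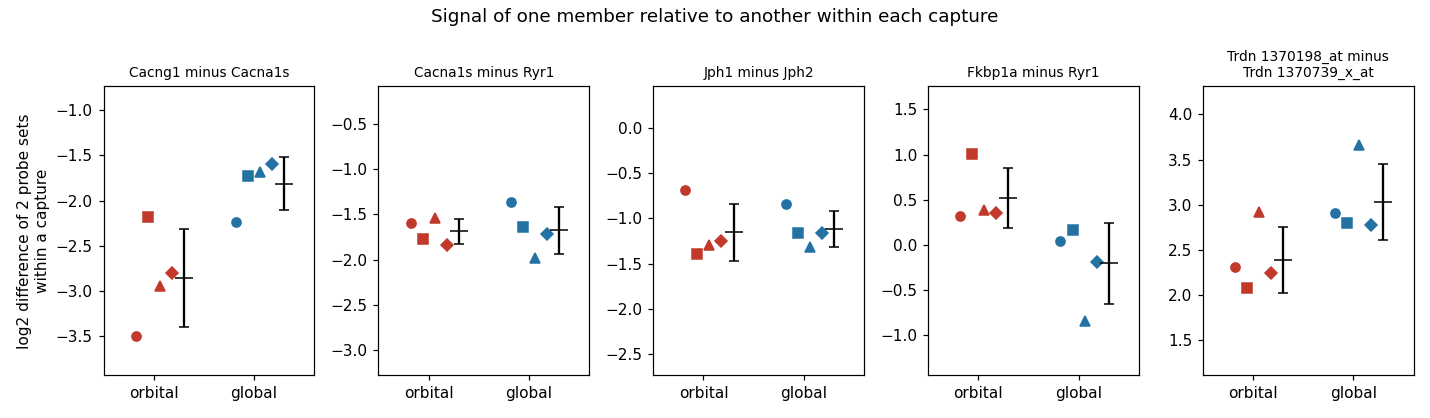
Log2 value of one member probe set minus that of another within each capture, for 5 pairs, in 4 orbital (red) and 4 global (blue) captures, with the mean and SD in black. Points of the layers are mixed for Cacna1s minus Ryr1 and for Jph1 minus Jph2, and separate for Fkbp1a minus Ryr1.

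Other genes of the triad, the calcium store and the transverse tubule were called in both directions. Of 47 listed, 36 were on the array and 27 were tested, each by its brightest probe set, of which 5 were lower in the orbital layer, 1 was higher and 21 did not pass, with a median difference of -0.24. Of the 7163 genes tested in this way, 3.59% were called lower and 4.09% higher. The count of 6 was 3 without global capture 1 or without global capture 3.

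The list was made of genes of the triad, the store and the tubule, so the place of those that fell was set by the list. Casq1, the calsequestrin of fast fibres that Trdn holds at the release site, had 2804 ± 328 (SD, n = 4) in orbital tissue, against 4970 ± 831 in global tissue (-0.82 ± 0.15, adjusted p = 0.00409). Cacna2d1, the alpha2-delta subunit of the voltage sensor, had 436 ± 91.6 in orbital captures and 707 ± 26.6 in global captures (-0.72 ± 0.15, adjusted p = 0.00928). Asph, a locus that also encodes junctin, the sister of triadin, had 422 ± 79.8 in orbital tissue, against 699 ± 125 in global tissue (-0.73 ± 0.17, adjusted p = 0.0171). Whether its probe set reads junctin or another product of the locus was not determined here. Srl, sarcalumenin of the store, differed by -0.59 (adjusted p = 0.0237), and Sypl2, mitsugumin of the triad membrane, by -0.49 (adjusted p = 0.0284). The Asph call was lost without global capture 1 or 3 (0.0579 and 0.0572). That of Srl was lost without orbital capture 1, 2 or 3 and without global capture 1, 3 or 4 (0.0506 to 0.0756), and that of Sypl2 on leaving out orbital capture 2 or 3 or global capture 1, 3 or 4 (0.0534 to 0.0890). Srl and Sypl2 also missed the threshold without an intensity trend and after scaling to the muscle fibre list described below, and Srl did without the filter (0.0525).

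The gene that rose was Casq2, the calsequestrin of heart and slow fibres, with 1428 ± 213 (SD, n = 4) in orbital tissue, against 719 ± 156 in global tissue (1.005 ± 0.172, adjusted p = 0.00296). Its second, dimmer probe set differed by 0.55 without passing (adjusted p = 0.291). The brightest of the genes that did not pass were Hrc, a calcium-binding protein of the store (-0.27), Tmem38a (-0.35), Trim72, a membrane repair protein (-0.01), and Stim1, the sensor of store calcium (0.20). For Trim72 the orbital mean was 2447 ± 251 and the global mean 2499 ± 478.

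**Figure D4:**
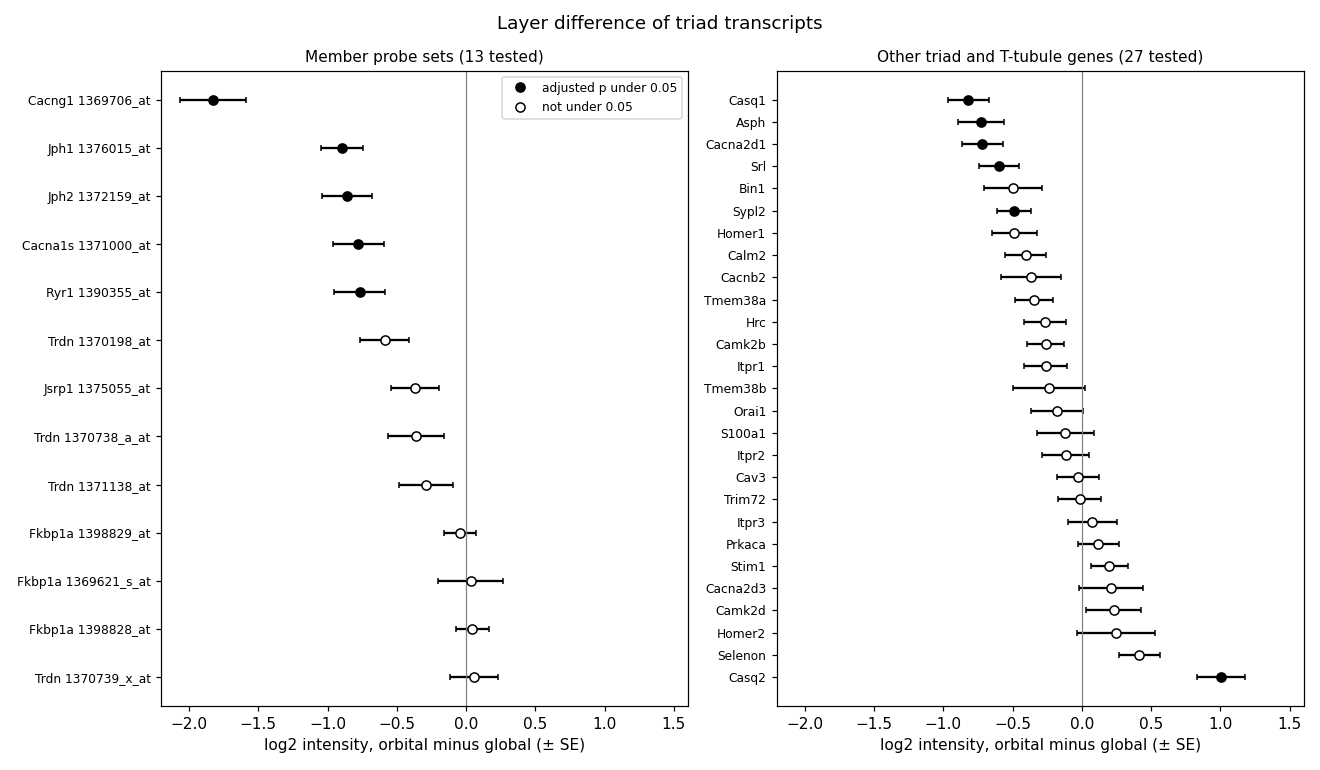
Log2 difference, orbital minus global, with its SE for the 13 tested member probe sets (left) and the 27 tested other triad and transverse tubule genes (right), with filled points where the adjusted p was under 0.05. The members range from -1.83 for Cacng1 to 0.06 for a Trdn set, and the other genes from -0.82 for Casq1 to 1.005 for Casq2.

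Skeletal muscle markers were bright in all 8 captures. Acta1, skeletal actin, had a mean of 8507 in the orbital layer, against 10886 in the global layer, without passing (adjusted p = 0.288). Of 14 tested fibre genes, 1 was lower (Ttn, titin, -0.70, adjusted p = 0.00980, but 0.0604 without the filter) and 2 higher (Mb, myoglobin, 0.82, and Myom1, myomesin, 0.81), with a median of -0.05. The summed intensity of the 15 listed fibre genes on the array was 40947 to 54815 in orbital captures, against 45071 to 61635 in global captures. Among those not called, Ckm differed by -0.58 and Neb by -0.45, while Actn2 differed by 0.30 and Des by 0.29. Each array was then scaled to the mean of the 14 tested genes of this list. The same 5 members passed, with Ryr1 at -0.74 (adjusted p = 0.0127 by limma) and Cacna1s at -0.75 (0.0220). The list mean was 10.688 to 11.078 (log2) in orbital captures, against 10.783 to 11.115 in global captures. Scaling to it could thus move the layer differences little, and it does not show that fibre content was equal.

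Markers of other cells and RNA quality also differed in places. Of the 7163 genes tested by their brightest probe set, 3.59% were called lower and 4.09% higher. The summed intensity of 5 photoreceptor genes was 1411 to 2968 in orbital captures, against 307 to 1264 in global captures. Of 4 tested, 1 was called (Guca1a, 2.05). Guca1a made up much of that sum, with a mean of 1374 in orbital and 339 in global captures. The layers overlapped for Pdc, Sag and Gnat1, which did not pass though their orbital means were higher. The sum of 4 neuronal genes was 405 to 693 in orbital captures, against 209 to 512 in global captures. Of 3 tested, 1 was called (Map2, 1.77). Map2 made up much of the orbital sums, with a mean of 323 in orbital and 97.9 in global captures. The layers overlapped for Eno2 (0.18) and Snap25 (0.78), which did not pass. The 6 nerve and Schwann cell genes summed to 2737 to 5096 in orbital captures, against 1444 to 4647 in global captures. Of 5 tested, 2 were called higher (Cnp, 0.84, and Nefm, 1.23, whose layers overlapped). Most of that sum was Pmp22, with a mean of 2351 in orbital and 1852 in global captures. The layers overlapped for Pmp22, Mbp and S100b, which did not pass. The sum of 7 smooth muscle genes was 689 to 725 in orbital captures, against 849 to 1065 in global captures, where 1 of 6 tested was called (Myh11, -1.39). Without Des, which muscle fibres also make, the other 6 summed to 369 to 543 in orbital captures, against 704 to 894 in global captures. The tested genes that did not pass were Tagln (-0.73, orbital below global without overlap), Smtn (-0.38), Acta2 (-0.05), Des (0.29) and Lmod1 (0.40). Endothelial (722 to 1066 in the orbital, 661 to 763 in the global captures) and fibroblast sums (4974 to 7712 in the orbital, 3697 to 6825 in the global captures) had 1 gene each called higher, and adipocyte genes were all too dim to test (26.9 to 97.6 in the orbital, 59.4 to 92.2 in the global captures). No marker was at 0 in any capture. The 3′ to 5′ ratio of Gapdh was 6.33, 5.81, 12.9 and 8.64 in the orbital captures, against 5.35 to 6.47 in the global captures. Within each prefix both orbital ratios were above both global ones. The part of the other cell types and of RNA quality in the members' differences was not tested. The median intensity of the arrays was 58.8 to 66.3 and 8 arrays set the precision.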

How the data were processed

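RNA of laser-captured extraocular muscle layers was made into labelled target after T7-based amplification and read on 1-colour RAE230A arrays, per the labels. The deposited values are 1 intensity per probe set in linear units. Their summarising software is not given in the sources used here. The authors had scaled the arrays, since 2% trimmed means differed by 0.00389%, so the intensities were used as deposited.

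Of 15866 non-control probe sets, 9520 with a mean log2 value at or above the 40th percentile (intensity 39.4) were tested, on log2(intensity + 1) in limma 3.58.1 under R 4.3.3 (lmFit, then eBayes with trend), layer being the only term, 4 orbital against 4 global captures. Gene names are those of GEO's platform annotation and may be outdated. Ratios used exact permutation tests in scipy 1.17.1. The fit was tested on simulated data of the same size (200 changed among 9520), where 79% of those changed by 1 (log2) and 96% of those changed by 2 were called. Of the unchanged probe sets, 6 were called. The simulated captures were independent and no change under 1 was simulated. The simulation thus does not cover shared animals, or differences of the size seen for Ryr1, Cacna1s, Jph1 and Jph2.

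The members, the gene lists and the naming rule (all member probe sets, listed genes that passed and the 4 brightest triad genes that did not, and the 5 probe sets most like Ryr1 and Cacna1s) were chosen with earlier results of these data known. Same-prefix captures of different layers correlated in their deviations with r of -0.005 to 0.111, and those of different prefixes with r of -0.134 to 0.045. Deviations were taken from the layer means, which ties these r values to each other. They do not settle whether the captures are paired. Alternatives were quantile and cyclic loess normalization, offsets of 16 and 64, no filter and the 60th percentile, eBayes without trend or robust, a block for the prefix, fixed or random, array weights, orbital captures 3 and 4, whose titles are nearly the same, averaged, each prefix alone and each capture left out. Scaling to the muscle fibre list and the fits of listed genes and ratios were added after seeing the data.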

Additional observations from a re-analysis of the deposited data

Results flagged for a closer look

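Captures that stood apart from the others of their layer by Dixon's criterion for 4 values were found in 2 of the 36 groups checked, and chance flags about 1 in 20. The signal of Fkbp1a relative to Ryr1 was 1.01 (log2) in orbital capture 2, against 0.32, 0.39 and 0.35 in orbital captures 1, 3 and 4, a gap of 0.896 of the range. The signal of the brightest Trdn probe set relative to the _x_ set was 3.66 in global capture 3, against 2.91, 2.79 and 2.78 in global captures 1, 2 and 4, a gap of 0.857 of the range. None (0) of the 13 tested member probe sets had such a capture in its intensities.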

How the results depend on the processing

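Of 297 values of member probe sets over the alternatives, 268 kept their direction and their side of the threshold, 16 lost the call, 5 gained it (all of the brightest Trdn set) and 8 changed sign, all 8 in Fkbp1a or the Trdn _x_ set, which were not called. The 297 include the uncalled sets, which had no call to lose. Calls were lost under 6 of 23 alternatives for Cacna1s, 5 of 23 for Ryr1, 2 of 23 each for Jph1 and Jph2, and 1 of 22 for Cacng1. The count of member probe sets called was 3 to 6 on leaving out single captures, 0 with prefix R2 alone and 1 with prefix R3 alone. The count over the whole array was 468 to 726 on leaving out single captures, with 705 in all and the low value without global capture 3. It was 106 with R2 alone, 166 with R3 alone and 425 after scaling to the muscle fibre list. Other triad genes called numbered 3 to 6 on leaving out single captures, 0 with R2 alone and 1 with R3 alone, against 6 in all. With the replicate block by prefix, 5 member probe sets and 745 of the whole array were called, and the random block gave 5 and 651. Neither block changed the number of members called. Values that changed sign were all of uncalled results. The dim Fkbp1a set was -0.0772 with R3 alone and -0.0786 to 0.135 on leaving out single captures. On leaving out single captures the Trdn _x_ set was -0.0185 to 0.221 and Fkbp1a 1398828_at was -0.0129 to 0.0945. Fkbp1a 1398829_at was 0.0339 with quantile normalization. The layer difference of Cacna1s minus Ryr1 (-0.01 in all) was 0.0147 and 0.0814 with offsets of 16 and 64, and -0.117 to 0.0927 on leaving out single captures. That of Jph1 minus Jph2 (-0.04 in all) was 0.0405 with an offset of 64 and -0.192 to 0.0563 on leaving out single captures. The causes were not tested beyond the fewer captures in the fits that leave some out. Array signal limits Cacnb1 and Cacng1, as stated beside their values.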
